A study of Mus musculus with 21 samples.

Results

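The 38 cadherin and protocadherin genes examined here were picked by name from the 21887 protein-coding genes of the mm10 annotation, and no measured value chose them. They comprise 5 type I classical cadherins, 12 type II classical cadherins, 3 atypical or long cadherins, 10 delta protocadherins, 5 Fat and Dachsous genes and 3 Celsr genes. Accessible chromatin had been profiled by Omni-ATAC, in which a transposase inserts adapters into open chromatin, in 21 mouse libraries of 7 groups with 3 libraries each. VDR, a mouse medulloblastoma line, was transfected with siRNA against Nfib (siNfib), siRNA against Nfia (siNfia) or control siRNA (siNC), or was left untreated. The primary cells were granule neuron progenitors (GNP) at postnatal day 7, hyperplasia cells at postnatal day 28 and medulloblastoma cells from tumor-bearing cerebella, of unstated age. GNP and hyperplasia cells were taken from cerebella that carry the Atoh1EGFP reporter, which marks the granule lineage, and sorting of EGFP-positive cells is described for the primary cells. The titles of the GNP libraries read Ptch1GNP and those of hyperplasia PNC, with no genotype stated beyond that. VDR is 1 line, so its groups show that line and not medulloblastoma lines in general. The reagents are siRNA by the labels, although the knockdown lists carry an sh prefix in their names. Nothing states that replicates were separate animals or cultures, so p-values measure the spread between these libraries, which may be technical. The series follows tumorigenesis from progenitors to tumor and then asks what loss of either NFI factor does in the line.

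Cadherins are calcium-dependent adhesion proteins of the cell surface. Classical cadherins bind like cadherins on the neighbouring cell and anchor to actin through catenins, and type II members mark subsets of neurons. Delta protocadherins carry further adhesion and signalling roles in sorting neurons and their axons, Fat4 and Dchs1 bind each other across cells, and Celsr proteins organise planar cell polarity. In the cerebellum, new granule neurons leave the outer layer and migrate inward along glia, a step in which adhesion proteins take part.

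The measure throughout is the number of summits per gene. A summit is the position of highest signal within a called peak, and the 100000 highest-scoring summits of each list were kept, so every library entered with the same number. A gene's count is the kept summits in its body and within 20 kb of either end. It says how many of the highest-scoring summits of its library lie at a locus, not how open each site is. A peak can hold several summits, so the count is not a number of separate open sites. Kept summits are high by rank within their own library, and their scores differ between groups. In bulk samples, fewer cells of a type and fewer open sites per cell cannot be told apart.

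Some facts of the libraries bear on all results. Lists held between 159720 and 279584 summits, and read depth is unknown. Untreated VDR libraries stood apart: their score at rank 100000 was 3.76 to 3.97, against 4.95 to 17.4 in the transfected VDR libraries and 9.26 to 28.9 in the primary libraries, and only 6.53% to 8.15% of their summits came from peaks with several summits, against 22.6% to 52.3% elsewhere. Each comparison of the line with tumor is therefore given for untreated and for siNC cells. The 8 granule lineage genes listed as a check all held kept summits in every group. Their summed count was 446 to 499 in untreated VDR, 239 to 272 in siNC, 234 to 262 in GNP, 209 to 241 in hyperplasia and 209 to 231 in tumor. That sum is carried by Gli2, with 397 ± 45.2 kept summits in untreated and 87 ± 11.8 in siNC cells, against 48.3 ± 6.11 in tumor (SD, n = 3 each). Of the 8 genes, 1 rose and 5 fell in untreated VDR against tumor, and 3 rose and 2 fell in siNC VDR. Neurod1, among the falls in both, reached the filter through its tumor counts and had to differ. The granule transcription factor gene Zic1 fell to 10.3 kept summits in untreated cells, against 50 in tumor, and Pax6 to 3.67, against 26. Summit counts are no test of knockdown: the Nfib locus held 113, 103 and 99 kept summits in siNfib cells, against 133, 118 and 94 in siNC cells, and the Nfia locus 71, 70 and 70 in siNfia cells, against 69, 74 and 73 in siNC cells.

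Annotated starts were available for 26 of the 38 genes, and the bases before them are shown for the 5 genes whose starts carry the contrasts described next. The annotated starts of Pcdh7 and Cdh10 lie inside their gene bodies, over 1 kb from the outer end. Pcdh10, Pcdh7 and Pcdh8 are delta protocadherins that were open at their start in all 9 primary libraries and lost the kept start summit in siNC cells. Pcdh17 is a delta protocadherin whose start held a kept summit in every library, and Cdh10 is a type II cadherin whose start held one in GNP and transfected VDR libraries and none in hyperplasia or tumor. The sequences are RefSeq's, on GRCm38.p6 (mm10), each the 250 bases before the annotated start, written 5′ to 3′ on the strand of the gene. They lie at chr3:45378148-45378397 (plus strand, Pcdh10), chr5:57717831-57718080 (plus, Pcdh7), chr14:79771313-79771562 (minus, Pcdh8), chr14:84443313-84443562 (plus, Pcdh17) and chr15:18820079-18820328 (plus, Cdh10). Capitals mark the NFI core TTGGC or its complement GCCAA.
Pcdh10: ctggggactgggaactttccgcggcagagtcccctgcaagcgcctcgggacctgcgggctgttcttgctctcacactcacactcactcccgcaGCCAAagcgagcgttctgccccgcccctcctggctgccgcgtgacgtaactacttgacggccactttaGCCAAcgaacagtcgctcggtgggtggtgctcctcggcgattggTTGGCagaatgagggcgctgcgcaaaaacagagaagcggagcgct
Pcdh7: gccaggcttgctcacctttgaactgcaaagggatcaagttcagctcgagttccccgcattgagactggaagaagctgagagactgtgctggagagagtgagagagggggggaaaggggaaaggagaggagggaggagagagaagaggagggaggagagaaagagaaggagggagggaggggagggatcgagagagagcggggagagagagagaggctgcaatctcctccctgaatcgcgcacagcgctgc
Pcdh8: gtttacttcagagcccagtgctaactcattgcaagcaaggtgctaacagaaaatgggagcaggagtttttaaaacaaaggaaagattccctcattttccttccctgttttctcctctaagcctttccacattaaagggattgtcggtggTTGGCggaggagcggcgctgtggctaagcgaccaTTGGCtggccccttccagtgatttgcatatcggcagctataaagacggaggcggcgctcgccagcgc
Pcdh17: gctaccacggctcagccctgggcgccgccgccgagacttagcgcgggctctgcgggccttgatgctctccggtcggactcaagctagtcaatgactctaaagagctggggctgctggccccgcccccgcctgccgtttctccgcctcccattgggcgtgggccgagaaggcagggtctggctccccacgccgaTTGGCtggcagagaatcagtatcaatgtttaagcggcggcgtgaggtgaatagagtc
Cdh10: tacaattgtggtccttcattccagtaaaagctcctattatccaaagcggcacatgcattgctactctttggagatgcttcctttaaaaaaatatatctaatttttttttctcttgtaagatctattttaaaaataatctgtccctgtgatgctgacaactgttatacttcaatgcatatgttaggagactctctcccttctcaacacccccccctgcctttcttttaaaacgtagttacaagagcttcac

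The core occurs 3 times before Pcdh10, 2 times before Pcdh8, 1 time before Pcdh17 and not in the windows of Pcdh7 and Cdh10. Over all 21263 promoter windows of this length, 43.0% hold at least 1 core on either strand, so its presence is common. A GLI site (GACCACCCA or TGGGTGGTC), present in 0.16% of all windows, was found in none of the members. CpG dinucleotides numbered 22 before Pcdh10, 21 before Pcdh17, 11 before Pcdh8, 7 before Pcdh7 and 2 before Cdh10, where the median over all windows was 10. These matches describe the letters only.

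The primary stages were compared first, to see how the loci differ from GNP through hyperplasia to tumor. Between GNP and tumor, Cdh10, Cdh11, Pcdh10 and Celsr1 held fewer kept summits in tumor, and Cdh18 and Cdh20 held more. Between GNP and hyperplasia, Cdh7, Cdh10 and Celsr1 held fewer in hyperplasia. No member passed the test between hyperplasia and tumor. Of the 38 members, 33 passed the filter of a mean of at least 3 kept summits over these 9 libraries. Cdh3, Cdh9, Cdh19, Pcdh11x and Pcdh20 did not, with 0 to 5 kept summits in each primary library.

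**Figure D1:**
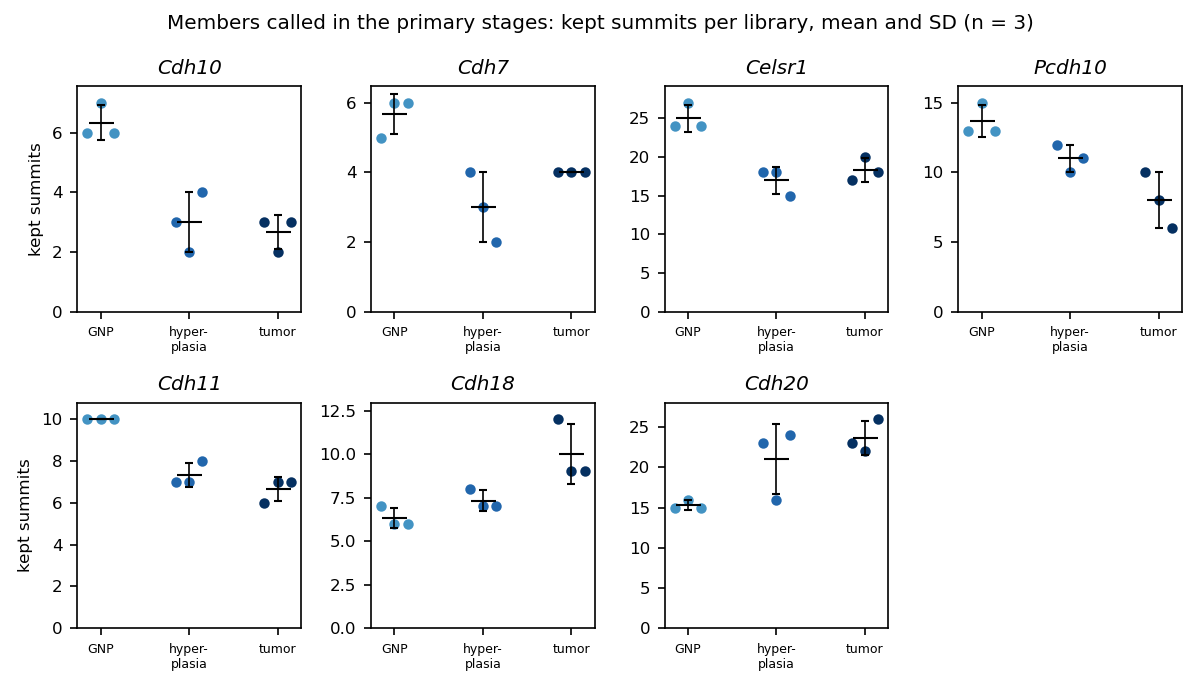
Kept summits (vertical axis, from 0) of the 7 members called between primary stages, by stage in order GNP, hyperplasia, tumor. Points are libraries, bars the mean and SD (n = 3); Cdh10 had 2 or 3 kept summits in tumor libraries and 6 or 7 in GNP libraries.

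Cdh10, a type II cadherin of brain neurons, had 3, 2 and 4 kept summits in hyperplasia, against 6, 7 and 6 in GNP. It had 3, 2 and 3 in tumor. Both later stages lay below all GNP libraries, by a log2 change of -0.90 (SE 0.20, adjusted p = 0.0383) in hyperplasia and -1.01 (SE 0.20, adjusted p = 0.0222) in tumor. The call also held when the 10 neighbouring genes, 5 on each side, were taken as baseline: -1.02 (adjusted p = 0.00577) and -1.12 (adjusted p = 0.00245). The mean over the 6 hyperplasia and tumor libraries was 2.83, so Cdh10 reached the filter through its GNP counts and these p-values are not read as support. Its start held a kept summit in 3 of 3 GNP libraries and in 0 of 3 hyperplasia and 0 of 3 tumor libraries. It was the only member among the 26 with an annotated start that lost its start summit in this way, where 0.657% of 17492 genes lost theirs in hyperplasia and 1.11% in tumor. The Cdh10 start used, chr15:18820329, lies inside the gene body, which begins at chr15:18818869. That outer end lay outside the 1 kb examined. The GNP summits at the start used were weak, at ranks 82381 to 94048, and no hyperplasia library listed any summit there at any rank. Of the 3 tumor lists, 2 did hold a weaker summit there, at ranks 159053 to 213125.

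Cdh7, a type II cadherin, had 4, 3 and 2 kept summits in hyperplasia, against 5, 6 and 6 in GNP, a log2 change of -0.76 (SE 0.18, adjusted p = 0.0443). In tumor it had 4 in every library, and that difference from GNP was not called. Celsr1, a planar polarity receptor, had 18, 18 and 15 in hyperplasia, against 24, 27 and 24 in GNP (log2 change -0.53, SE 0.10, adjusted p = 0.0228). It had 17, 20 and 18 in tumor (log2 change against GNP -0.43, SE 0.10, adjusted p = 0.0372). In both later stages every library of Celsr1 lay below every GNP library. Against its neighbours the Celsr1 differences were -0.32 in hyperplasia and -0.22 in tumor and were not called.

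Pcdh10, the delta protocadherin also named OL-protocadherin, had 10, 8 and 6 kept summits in tumor, against 13, 15 and 13 in GNP (log2 change -0.73, SE 0.16, adjusted p = 0.0301). The hyperplasia libraries, with 12, 10 and 11, lay below all GNP libraries, and only 1 tumor library reached their lowest value. Against neighbours the Pcdh10 difference was -0.55 (adjusted p = 0.0644). Cdh11, a type II cadherin of mesenchymal and neural cells, had 6, 7 and 7 in tumor, against 10 in each GNP library (log2 change -0.52, SE 0.10, adjusted p = 0.0207). That was -0.41 against neighbours (adjusted p = 0.152).

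Higher in tumor were 2 type II cadherins. Cdh18 had 12, 9 and 9 kept summits in tumor, against 7, 6 and 6 in GNP (log2 change 0.58, SE 0.13, adjusted p = 0.0347). Cdh20 had 23, 22 and 26 in tumor, against 15, 16 and 15 in GNP (log2 change 0.59, SE 0.14, adjusted p = 0.0399). The groups did not overlap for either gene, and both calls held against neighbours, at 0.60 (adjusted p = 0.0169) for Cdh18 and 0.83 (adjusted p = 0.00416) for Cdh20. Cdh20 in hyperplasia had 23, 16 and 24 kept summits, of which the 16 overlaps GNP. Its hyperplasia difference from GNP, 0.41, was called only against neighbours (0.55, adjusted p = 0.0427).

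Against neighbours, further members were called that the plain count did not reach. Cdh6 (-0.82, adjusted p = 0.0149) and Pcdh15, whose protein forms inner ear tip links with that of Cdh23 (-0.71, adjusted p = 0.0482), were lower in hyperplasia than in GNP. Fat4, a giant cadherin that binds Dchs1, was lower in tumor than in GNP (-0.79, adjusted p = 0.0432), with 6, 7 and 8 kept summits in tumor against 10, 15 and 14 in GNP.

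Between tumor and hyperplasia the members with the largest differences were Cdh6 (0.44) and Cdh22 (0.41), higher in tumor by value, and Pcdh7 (-0.58) and Cdh15 (-0.51), lower by value. Their adjusted p lay between 0.143 and 0.381. Pcdh7 had 16, 17 and 6 in tumor, against 20, 16 and 19 in hyperplasia, and its low value rests on tumor replicate 3. Tumor replicate 3 was also the lowest tumor library for Pcdh17, with 4 kept summits beside 11 and 9, for Pcdh9, with 16 beside 27 and 22, and for Pcdh10.

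In hyperplasia against GNP, 0 of 33 members rose and 3 fell (2 without Cdh10), where 2.18% of 14112 genes rose and 2.33% fell. In tumor against GNP, 2 rose and 4 fell (3 without Cdh10), where 3.08% of genes rose and 3.55% fell. Of 14112 genes, 1205 lay wholly above GNP and 1715 wholly below in tumor, as did 6 and 7 of 33 members. In hyperplasia 1050 and 1392 genes did, as did 2 and 6 members. Cdh10 is among the members below GNP in both. In tumor against hyperplasia limma called 0 members in either direction, where 0.12% of genes rose and 0.0779% fell. An unadjusted p under 0.05 was reached by 9 of 33 members and by 2366 of 14112 genes. Against neighbours, 5 members were called in hyperplasia against GNP (6.02% of genes in either direction) and 4 in tumor against GNP (6.59%). Cdh10, which reached the filter through its GNP counts, is among the calls in both. In tumor against hyperplasia 0 were called (1.16%), where 8 members and 2312 of 14112 genes had an unadjusted p under 0.05. The median log2 change over the 33 tested members was -0.01 in hyperplasia and 0.00 in tumor, each against GNP, beside -0.02 and -0.05 over all genes. Each of the 9 calls on plain counts was lost when any 1 of the 3 GNP libraries was left out, and each also without at least 1 hyperplasia or tumor library. The log2 changes in those fits were -0.93 to -0.48 in hyperplasia, and in tumor -1.08 to -0.37 for the 4 lower and 0.45 to 0.64 for the 2 higher members, with adjusted p of 0.0501 to 0.148. With every summit of each list counted, 0 members were called in either comparison.

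Markers of other cells were counted in the same way. The 6 endothelial markers summed to 12 to 13 kept summits in hyperplasia and 14 to 20 in tumor, against 19 to 20 in GNP, with Tie1 at 0 in each stage, and Kdr fell in both, having reached the filter through its GNP counts. The 7 fibroblast markers summed to 13 to 17 in hyperplasia and 16 to 19 in tumor, against 15 to 17 in GNP, with Col3a1 and Dcn at 0 in GNP. The 7 Purkinje and interneuron markers summed to 37 to 46 in hyperplasia and 32 to 42 in tumor, against 27 to 32 in GNP. Foxp2 of that list rose in both and Gad1 fell in tumor. The 7 oligodendrocyte markers summed to 63 to 72 in hyperplasia and 71 to 72 in tumor, against 56 to 66 in GNP, and Olig1 rose in tumor. The 6 astrocyte markers summed to 37 to 43 in hyperplasia and 43 to 52 in tumor, against 39 to 43 in GNP, with 0 called. The 7 microglia markers summed to 22 to 24 in hyperplasia and 20 to 24 in tumor, against 23 to 24 in GNP, and Spi1 fell in hyperplasia (5.33 against 8, adjusted p = 0.0473). Of the granule lineage genes, Neurod1 fell to 8.67 in hyperplasia (adjusted p = 0.00922) and 10.3 in tumor (adjusted p = 0.0397), against 13.7 in GNP, and Pax6 fell to 26 in tumor, against 37.7 in GNP (adjusted p = 0.0352). The part of these markers in the cadherin differences was not tested. GNP and hyperplasia cells differ in age as well, and stage and age cannot be told apart.

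The VDR line was then set against tumor cells. Of the delta protocadherins, Pcdh7, Pcdh8, Pcdh10, Pcdh11x, Pcdh17 and Pcdh20 held 0 to 2 kept summits in every VDR library, treated or not. Fat4 held 0 to 2 as well. Cdh10 and Cdh18 rose in siNC cells against tumor, and Cdh7, Cdh15, Cdh20, Cdh23 and Celsr1 rose in untreated cells. Cdh2 and Pcdh9 fell in untreated cells. Of the 38 members 29 passed the filter here, and a member that passes through its tumor counts alone had to differ. Pcdh7, Pcdh17 and Fat4 are such members, with means of 0.167, 1.33 and 1.17 over the 6 untreated and siNC libraries, so their values below are a description with no test, and counts over the tested members describe them only.

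**Figure D2:**
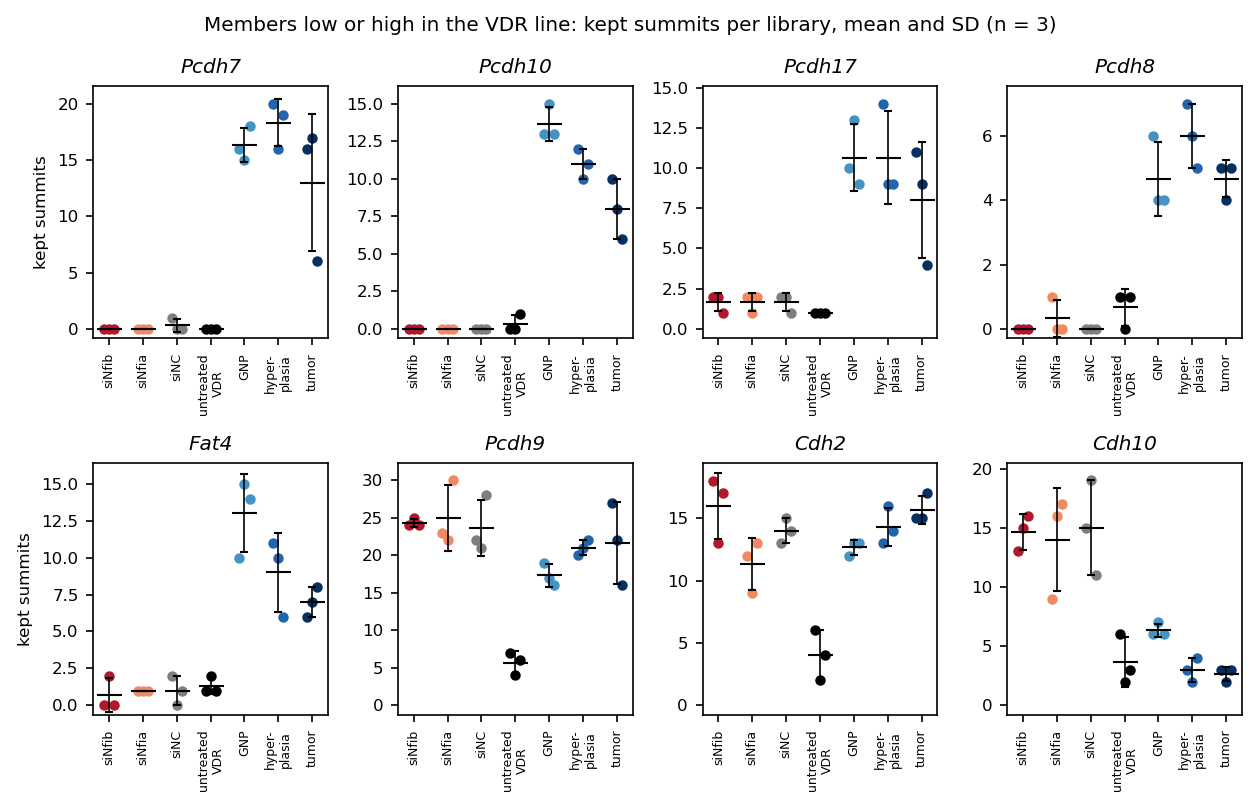
Kept summits (vertical axis) of 8 members in all 7 groups, VDR groups at left and primary stages at right. Points are libraries, bars the mean and SD (n = 3); Pcdh10 has 0 kept summits in all 9 transfected libraries and 6 to 15 in the primary ones.

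Pcdh7, a delta-1 protocadherin, had 0 kept summits in each untreated VDR library and 1, 0 and 0 in siNC libraries, against 16, 17 and 6 in tumor. Every untreated and siNC library lay below the lowest tumor library. With every summit of each list counted, Pcdh7 had 0 in untreated cells, 1, 5 and 3 in siNC cells and 32, 33 and 17 in tumor.

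Pcdh17, a delta-2 protocadherin, had 1 kept summit in each untreated library and 2, 2 and 1 in siNC libraries, against 11, 9 and 4 in tumor. The log2 change was -2.08 in untreated and -1.69 in siNC cells, and -0.90 and -1.32 against neighbours. The highest VDR library lay below the lowest tumor library. A kept summit lay at its start in 3 of 3 libraries of all 7 groups.

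Pcdh10 fell under the filter and was not tested. It had 0, 0 and 1 kept summits in untreated VDR and 0 in all 9 transfected libraries, against 10, 8 and 6 in tumor. Counting whole lists, it still had 0 in all 9 transfected libraries, 0, 0 and 1 in untreated cells and 19, 18 and 16 in tumor. The region at its start, chr3:45378070-45378569, overlaps the bases printed for it and was occupied in all 9 primary and in none of the 12 VDR libraries. Pcdh8, a delta-2 protocadherin and also under the filter, had 1, 0 and 1 in untreated and 0, 0 and 0 in siNC cells, against 5, 4 and 5 in tumor. Its start region, chr14:79771095-79771594, was occupied in all 9 primary libraries, 1 untreated VDR library, 0 siNC libraries, 1 siNfia library and 0 siNfib libraries, with a weaker summit in 1 siNC list. Pcdh20 had 0 in untreated and in siNC cells, against 3, 3 and 5 in tumor, and Pcdh11x, on the X chromosome, had 0 in both, against 3, 1 and 1 in tumor.

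The other delta protocadherins were not low in all VDR cells. Pcdh9 had 7, 4 and 6 kept summits in untreated VDR and 22, 21 and 28 in siNC cells, against 27, 22 and 16 in tumor. It was called lower in untreated cells (log2 change -1.76, SE 0.22, adjusted p = 1.33e-05), by less against its neighbours (-0.57, adjusted p = 0.0326), while siNC and tumor overlapped. The untreated and siNC cells themselves differed by -1.90 (adjusted p = 2.4e-05). Pcdh18 had 1, 2 and 2 in untreated and 5, 6 and 6 in siNC cells, against 6, 5 and 5 in tumor, was called lower in untreated cells by count and not against neighbours (-0.51, adjusted p = 0.151). By count it differed between the 2 states by -1.34 (adjusted p = 0.00106), but against neighbours by -0.31, which was not called (adjusted p = 0.399). Pcdh1 was called in neither. Pcdh19, an X-linked gene of the delta-2 group, had 0, 0 and 2 in untreated and 1, 4 and 3 in siNC cells, against 7, 5 and 4 in tumor, and fell under the filter.

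Fat4 had 1, 2 and 1 kept summits in untreated VDR and 2, 0 and 1 in siNC cells, against 6, 7 and 8 in tumor. The log2 change was -1.80 in untreated and -2.13 in siNC cells, without overlap with tumor. Against neighbours it was -0.73 in untreated and -2.12 in siNC cells. Its partner Dchs1 had 4, 6 and 4 in untreated and 9, 11 and 9 in siNC cells, against 13, 7 and 9 in tumor. Cdh11, under the filter, had 2, 0 and 2 in untreated and 1, 1 and 0 in siNC cells, against 6, 7 and 7 in tumor.

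Cdh10 had 6, 2 and 3 kept summits in untreated VDR and 15, 19 and 11 in siNC cells, against 3, 2 and 3 in tumor. The siNC difference was called (log2 change 2.11, SE 0.30, adjusted p = 0.000198), also against neighbours (1.64, adjusted p = 0.0041). Of the 26 members with an annotated start it was the 1 that gained its start summit in siNC cells (0.44% of genes did). Cdh18 had 7, 8 and 7 in untreated and 24, 19 and 16 in siNC cells, against 12, 9 and 9 in tumor (siNC log2 change 0.90, SE 0.19, adjusted p = 0.00279). Against neighbours the Cdh18 difference was 0.36 and was not called.

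Cdh20 had 85, 111 and 78 kept summits in untreated VDR and 40, 38 and 32 in siNC cells, against 23, 22 and 26 in tumor. The log2 change was 1.89 (SE 0.15, adjusted p = 2.54e-07) in untreated and 0.61 (SE 0.15, adjusted p = 0.00707) in siNC cells. The genes around it were higher too: the geometric mean count of its 10 neighbours was 25.1 in the middle library of untreated and 4.43 in that of siNC cells, against 2.69 in that of tumor. Against neighbours Cdh20 was -0.90 in untreated cells (adjusted p = 0.00316), lower and not higher, and -0.02 in siNC cells. Cdh7, on the same chromosome, had 16, 18 and 18 in untreated and 5, 8 and 5 in siNC cells, against 4 in each tumor library. In untreated cells it gave 1.87 (SE 0.21, adjusted p = 4.81e-06) on plain counts and -1.45 (adjusted p = 0.000464) against neighbours. Cdh19, the next cadherin gene on that chromosome, had 8, 4 and 6 in untreated cells and 0 in each siNC and tumor library. Cdh13, a cadherin held in the membrane by a lipid anchor, was also 0.65 higher by count and -0.71 against neighbours in untreated cells, both called, with counts that overlapped tumor.

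**Figure D3:**
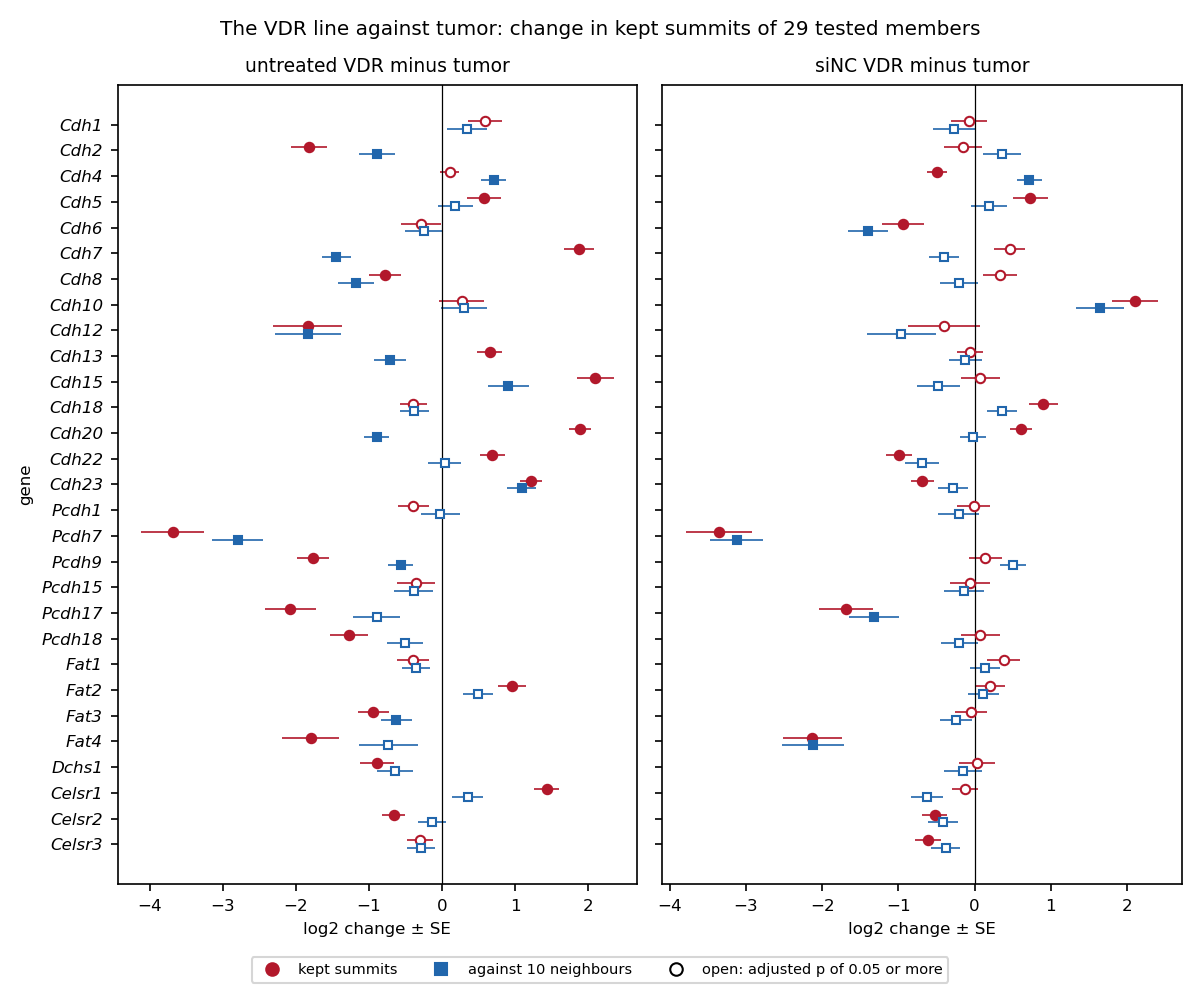
Log2 change (horizontal axis, bars SE) in untreated VDR against tumor at left and siNC VDR against tumor at right, for 29 tested members; circles are plain counts, squares the value against 10 neighbouring genes, filled symbols an adjusted p under 0.05. Pcdh7, Pcdh17 and Fat4 passed the filter through tumor alone and are shown as a description, and Cdh7 and Cdh20 lie right of 0 by count and left of 0 against neighbours in untreated cells.

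Among the type I cadherins, Cdh2, the N-cadherin of neural cells, had 6, 2 and 4 kept summits in untreated VDR and 13, 15 and 14 in siNC cells, against 15, 15 and 17 in tumor. It was called lower in untreated cells (log2 change -1.82, SE 0.25, adjusted p = 3.46e-05), also against neighbours at a smaller size (-0.89, adjusted p = 0.0218), and not in siNC cells, and the 2 states differed by -1.67 (adjusted p = 0.000185). Cdh15, the M-cadherin known from muscle and cerebellar granule cells, had 28, 26 and 14 in untreated and 4, 6 and 4 in siNC cells, against 4, 4 and 5 in tumor. It was higher in untreated cells (log2 change 2.10, SE 0.25, adjusted p = 1.11e-05), as it was against neighbours (0.91, adjusted p = 0.0336). The Cdh15 body alone held 10, 9 and 3 in untreated cells, against 1, 1 and 2 in tumor. Its window also overlaps the gene Ankrd11. Cdh4, the R-cadherin of retina and brain, had 67, 81 and 82 in untreated and 60, 45 and 47 in siNC cells, against 73, 69 and 71 in tumor. It was lower by count in siNC cells (log2 change -0.49, SE 0.13, adjusted p = 0.0122) but higher against its neighbours (0.72, adjusted p = 0.0113). Cdh1, the E-cadherin of epithelia, was called in neither.

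Cdh12 and Cdh6, both type II, were each called in 1 of the 2 comparisons. Cdh12 had 4, 0 and 2 kept summits in untreated and 9, 4 and 5 in siNC cells, against 13, 6 and 6 in tumor, and was lower in untreated cells (log2 change -1.84, SE 0.47, adjusted p = 0.00511). Cdh6 had 4, 6 and 3 in untreated and 3, 2 and 2 in siNC cells, against 6, 5 and 5 in tumor, and was lower in siNC cells (log2 change -0.94, SE 0.27, adjusted p = 0.0206). Cdh5, the VE-cadherin of endothelial junctions, had 13, 9 and 7 in untreated and 10, 9 and 13 in siNC cells, against 5, 7 and 6 in tumor. It was called in both, with 1 untreated library at the highest tumor count (0.58, SE 0.23, adjusted p = 0.0488, and 0.73, SE 0.23, adjusted p = 0.0294), and in neither against neighbours (0.18 and 0.19). The endothelial markers beside it summed to 13 to 19 in untreated and 8 to 12 in siNC cells, against 14 to 20 in tumor. Tie1 and Cldn5 were at 0 in siNC cells. Emcn was lower in untreated cells, but it reached the filter through its tumor counts and had to differ.

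By plain count, Cdh22 and Cdh23 were above tumor in untreated cells and below it in siNC cells. Cdh22, a type II cadherin, had 42, 52 and 41 kept summits in untreated and 12, 16 and 12 in siNC cells, against 22, 32 and 29 in tumor. The log2 change was 0.69 (SE 0.17, adjusted p = 0.00368) in untreated and -0.996 (SE 0.17, adjusted p = 0.00066) in siNC cells. Cdh23, the tip link partner of Pcdh15, had 57, 46 and 47 in untreated and 13, 11 and 14 in siNC cells, against 19, 20 and 24 in tumor. The log2 change was 1.21 (SE 0.15, adjusted p = 1.51e-05) in untreated and -0.69 (SE 0.15, adjusted p = 0.00395) in siNC cells. Against neighbours only the untreated Cdh23 difference was called (1.09, adjusted p = 0.0022). The Cdh22 difference was 0.04 in untreated and -0.69 in siNC cells (adjusted p = 0.928 and 0.0527), and that of Cdh23 was -0.29 in siNC cells (adjusted p = 0.35). With every summit of each list counted, untreated cells were no longer called above tumor, at 0.35 for Cdh22 (adjusted p = 0.136) and 0.27 for Cdh23 (adjusted p = 0.264). The whole-list counts of Cdh22 were 88, 83 and 82 in untreated cells, against 56, 86 and 59 in tumor, and those of Cdh23 were 75, 61 and 68, against 48, 76 and 48.

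Celsr1 had 45, 56 and 53 kept summits in untreated and 15, 14 and 22 in siNC cells, against 17, 20 and 18 in tumor. It was higher in untreated cells (log2 change 1.43, SE 0.17, adjusted p = 8.58e-06), not called against neighbours (0.36). Celsr3, a planar polarity receptor of neurons, had 14, 13 and 10 in untreated and 10, 9 and 10 in siNC cells, against 14, 17 and 15 in tumor, and was lower in siNC cells (log2 change -0.61, SE 0.17, adjusted p = 0.017). The other called members were Fat2, a Fat cadherin of cerebellar granule cells, higher in untreated cells (0.96), and Cdh8 (-0.79), Fat3 (-0.94), Dchs1 (-0.89), Pcdh18 (-1.27) and Celsr2 (-0.66), lower in untreated cells. Celsr2 was lower in siNC cells as well (-0.52). Against neighbours Cdh8 (-1.18, adjusted p = 0.00494) and Fat3 (-0.63, adjusted p = 0.0487) were called in untreated cells, and Fat2, Dchs1, Pcdh18, Celsr2 and, in siNC cells, Celsr2 and Celsr3 were not. Pcdh1, Pcdh15, Fat1 and Cdh1 were tested and called in neither comparison. Under the filter besides those described were Cdh3, the P-cadherin, with 6, 9 and 3 kept summits in untreated and 2, 1 and 1 in siNC cells, against 1, 2 and 1 in tumor, and Cdh9, with 0 to 2 in each of these libraries.

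In untreated cells 9 of 29 members rose and 11 fell against tumor, where 20.3% of 13608 genes rose and 28.3% fell. In siNC cells 4 rose and 9 fell, where 16.4% rose and 8.85% fell. Without Pcdh7, Pcdh17 and Fat4, which had to differ, 9 rose and 8 fell in untreated cells and 4 rose and 6 fell in siNC cells. Against neighbours, 12 members were called in untreated cells (21.3% of genes in either direction) and 6 in siNC cells (14.3%), of which Pcdh7 is 1 of the untreated calls and Pcdh7, Pcdh17 and Fat4 are 3 of the siNC calls. Of 13608 genes, 2839 lay wholly above tumor and 4010 wholly below in untreated cells, as did 7 and 12 of 29 members. In siNC cells 3583 and 2135 genes did, as did 6 and 9 members. Pcdh7, Pcdh17 and Fat4 are among the members below tumor in both. The median log2 change over the tested members was -0.36 in untreated and -0.06 in siNC cells, beside -0.19 and 0.11 over all genes. In untreated cells Cdh5 was the only call lost among the fits with 1 library left out in which the member could be tested, without any tumor library or without untreated replicate 1 or 2 (log2 change 0.36 to 0.68, adjusted p 0.0568 to 0.192). In siNC cells Cdh4, Cdh5, Cdh6, Celsr2 and Celsr3 were lost in some of these fits, each without at least 1 tumor and 1 siNC library (adjusted p 0.0506 to 0.132). Of the 6 such fits per comparison, Fat4 could not be tested in 3, Pcdh17 in 2 and Pcdh7 in 1, each without a tumor library, since they fell under the filter. In siNC cells 7 members were called without tumor replicate 2 or 3 and 8 without tumor replicate 1. With the untreated libraries left out of the fit, siNC cells gave 12 calls against neighbours, 3 higher and 9 lower.

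The starts of the genes were compared next. A kept summit within 1 kb of an annotated start was present in all 3 libraries for 8 of 26 members in untreated VDR and 14 in siNC cells, against 19 in tumor. Over 17492 genes those shares were 39.7%, 50.8% and 55.8%. In untreated cells Cdh6, Fat4, Pcdh7, Pcdh10, Pcdh15 and Pcdh20 lost the start summit present in all 3 tumor libraries, 6 of 26 members where 4.4% of genes did. In siNC cells Cdh6, Fat4, Pcdh7, Pcdh8, Pcdh10 and Pcdh20 lost it, again 6, where 3.28% did. At the starts of Pcdh10 and Pcdh20 no VDR library listed a summit of any rank. At the start of Fat4, 2 of 3 untreated and 3 of 3 siNC libraries listed a weaker one beyond rank 100000. Pcdh15 had its start open in 3 of 3 siNC and siNfib libraries, 2 of 3 siNfia libraries and 0 of 3 untreated ones. The annotated starts of Fat1 and Fat2 held no summit in any library, so these genes, whose loci held 8 to 24 and 7 to 19 kept summits, cannot be judged by them. Those of Cdh6, Cdh10, Fat4 and Pcdh7, among others, lie inside the gene body. They are over 1 kb from its outer end, which was not covered.

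**Figure D4:**
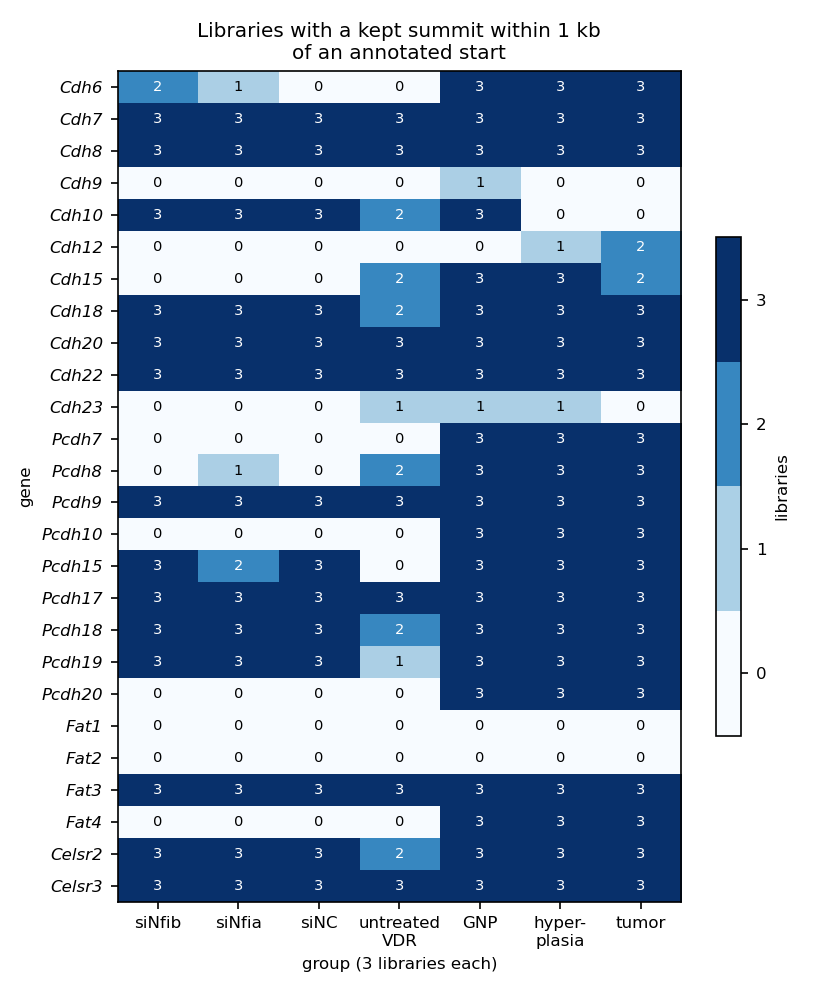
Number of libraries out of 3 (colour and digit) with a kept summit within 1 kb of an annotated start, for 26 members (rows) in 7 groups (columns). Pcdh7, Pcdh10, Pcdh20 and Fat4 read 0 in all 4 VDR groups and 3 in all primary stages, and Cdh10 reads 0 in hyperplasia and tumor.

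Knockdown of either NFI factor was compared with siNC within the transfected line. No member passed the test in siNfia, siNfib or their direct comparison. The delta protocadherins that were nearly empty in siNC cells had few in the knockdown cells too: Pcdh7, Pcdh10 and Pcdh11x had 0 kept summits in all 6 knockdown libraries, and Pcdh8, Pcdh20, Pcdh17 and Fat4 had 0 to 2. Of the 38 members 26 passed the filter. Besides these 7, Cdh3, Cdh6, Cdh9, Cdh11 and Cdh19 did not pass, with 0 to 5 kept summits in each of the 9 libraries.

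In siNfia cells, Cdh7 had the largest positive difference, with 10, 11 and 10 kept summits, against 5, 8 and 5 in siNC cells (log2 change 0.72, SE 0.17, adjusted p = 0.184). Fat2 followed, with 13, 15 and 11 in siNfia, against 9, 10 and 11 in siNC (0.34, adjusted p = 0.437). On the negative side, Pcdh15 had 3, 4 and 2 in siNfia, against 6, 5 and 6 in siNC (-0.76, SE 0.27, adjusted p = 0.328). Cdh12 had 4, 6 and 1 in siNfia, against 9, 4 and 5 in siNC (-0.70, adjusted p = 0.525). The groups did not overlap for Cdh7 and Pcdh15, and they overlapped or touched for Fat2 and Cdh12. Of 13542 tested genes, 496 lay wholly above siNC and 671 wholly below, as did 1 and 1 of 26 members.

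In siNfib cells, Pcdh19 had 4, 4 and 5 kept summits, against 1, 4 and 3 in siNC cells (log2 change 0.64, SE 0.29, adjusted p = 0.341). Cdh5 had 17, 14 and 18 in siNfib, against 10, 9 and 13 in siNC (0.58, SE 0.16, adjusted p = 0.111), without overlap, and its value against neighbours was 0.74 (adjusted p = 0.0649). Here 1016 of 13542 genes lay wholly above siNC and 712 wholly below, as did 2 and 0 of 26 members. Pcdh15 had 3, 2 and 5 in siNfib, against 6, 5 and 6 in siNC (-0.68, adjusted p = 0.256), and Cdh12 had 5, 4 and 3, against 9, 4 and 5 (-0.44, adjusted p = 0.661). Cdh10, with 13, 15 and 16 in siNfib, 9, 16 and 17 in siNfia and 15, 19 and 11 in siNC cells, overlapped in all 3 groups.

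Directly between the knockdowns, Cdh15 had 7, 5 and 5 in siNfib, against 3, 4 and 3 in siNfia cells (log2 change 0.62, SE 0.21, adjusted p = 0.174). Pcdh1 had 13, 11 and 10 in siNfib, against 6, 8 and 8 in siNfia (0.57, SE 0.18, adjusted p = 0.135). Lower by value in siNfib were Fat2, with 8, 8 and 10, against 13, 15 and 11 in siNfia (-0.53, adjusted p = 0.105), and Cdh8, with 15, 15 and 12, against 17, 15 and 19 (-0.26, adjusted p = 0.361).

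With siNfia, limma called 0 of 26 members and 0% of 13542 genes in either direction, with 4 members and 1509 genes at an unadjusted p under 0.05. With siNfib it called 0 members, where 0.354% of genes rose and 0.583% fell. There 6 members and 1908 genes had an unadjusted p under 0.05. Between siNfib and siNfia limma called 0 members, where 0.871% of genes were higher and 0.775% lower in siNfib. Here 6 members and 2172 genes had an unadjusted p under 0.05. Against neighbours 0 members were called with siNfia (0% of genes), siNfib (0.99%) or between them (1.24%). In that order, 3, 5 and 5 members and 1318, 1887 and 1975 genes had an unadjusted p under 0.05.

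**Figure D5:**
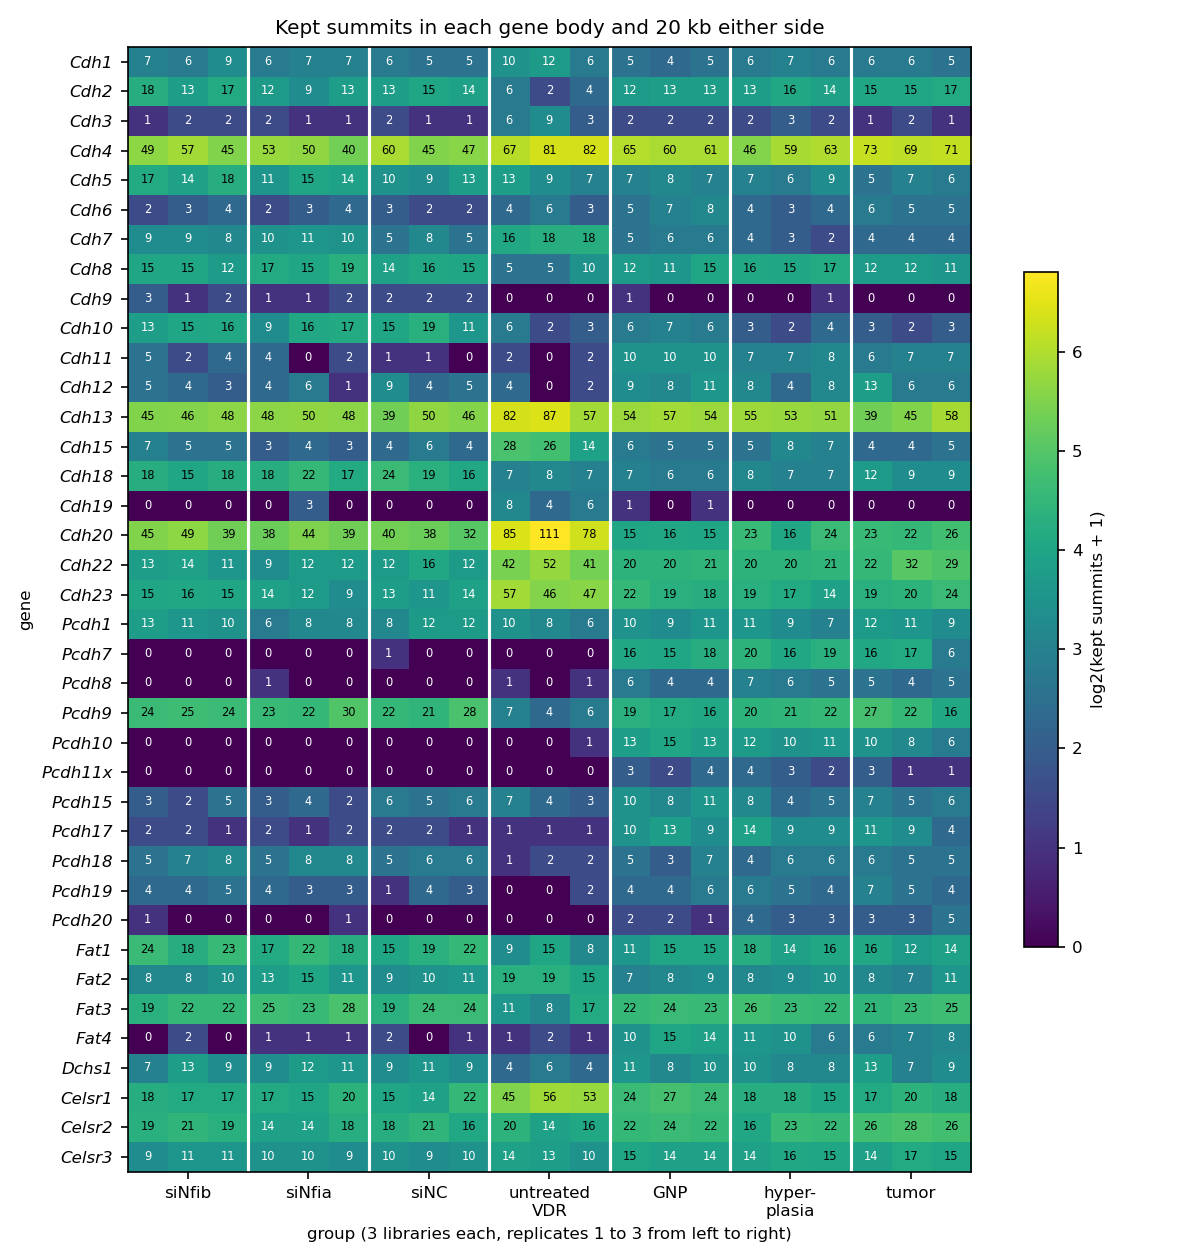
Kept summits (digits, colour on a log2 scale) of all 38 members (rows) in each of 21 libraries (columns, 3 per group). Rows Pcdh7, Pcdh8, Pcdh10, Pcdh11x, Pcdh17, Pcdh20 and Fat4 are dark in the 12 VDR columns at left, and the untreated VDR columns stand out in Cdh15, Cdh20, Cdh22, Cdh23 and Celsr1.

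Single sites were followed as regions of 500 bp around kept summits, of which 1619 of 271215 lay in the member windows. Gained means a kept summit in 3 of 3 libraries of the first group and in 0 of 3 of the second, lost the reverse, and no test was run. Where the complete lists of the second group do hold a summit there, at a lower rank, this is stated. In hyperplasia against GNP 26 of 521 member regions were gained and 32 lost, 4.99% and 6.14%, where 4.72% and 4.42% of all regions were. In tumor against hyperplasia 14 of 503 were gained and 8 lost, 2.78% and 1.59%, where 1.85% and 2.03% of all were. In tumor against GNP 28 of 506 were gained and 25 lost, 5.53% and 4.94%, where 4.74% and 4.35% of all were.

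Within the stages, the Cdh20 body held a region at chr1:104916492-104916991, 148222 bp inside the gene from its start, that was occupied in 3 of 3 hyperplasia and 3 of 3 tumor libraries and had no summit of any rank in GNP. A region beside Celsr2, chr3:108433426-108433925, lay 17607 bp outside the gene body and was occupied in all hyperplasia and tumor libraries and in no GNP library, of which 2 listed a weaker summit. A region in Cdh4, chr2:179640576-179641075, was occupied in every library except the 3 of GNP, where each list held a weaker summit. In the other direction, a Cdh11 region, chr8:102725450-102725949, and a Cdh23 region, chr10:60575274-60575773, were occupied in the 3 GNP libraries and in no other library of the series, with weaker summits in 3 and 1 of the tumor lists.

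In untreated VDR against tumor 10 of 1314 member regions were gained and 90 lost, 0.761% and 6.85%, where 1.06% and 8.48% of all regions were. In siNC VDR against tumor 30 of 590 were gained and 86 lost, 5.08% and 14.6%, where 4.46% and 10.3% of all were. Of the members higher by count in untreated cells, Cdh15 gained 0 of 50 regions, Cdh22 0 of 86 and Cdh23 0 of 115. Cdh5 gained 1 of 13, Cdh7 1 of 34, Fat2 1 of 30 and Cdh13 1 of 203. Cdh20 gained 3 of 145 and Celsr1 3 of 102. By number Cdh4 lost most in siNC cells, 17 of 77 regions (22.1%), and Cdh13 lost 10 of 64. By share Pcdh10 lost most, 4 of 5 (80%), followed by Pcdh8, with 2 of 4 (50%), and Cdh6, with 4 of 9 (44.4%), while Cdh18, Cdh13 and Cdh5 each gained 4. A Pcdh7 region at chr5:58080989-58081488, 363158 bp inside the gene from its start, was occupied in all 9 primary and in no VDR library. A Cdh6 region, chr15:13173384-13173883, lies at its start and was occupied in all primary, 2 siNfib, 1 siNfia, 0 siNC and 0 untreated VDR libraries, with weaker summits in 2 siNC lists. A region 161 bp beyond the body of Fat1, chr8:45052168-45052667, was occupied in all 9 transfected libraries and in no other, with no summit of any rank in tumor.

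In siNfia against siNC 6 of 538 member regions were gained and 7 lost, 1.12% and 1.3%, where 0.973% and 0.856% of all regions were. In siNfib against siNC 27 of 504 were gained and 8 lost, 5.36% and 1.59%, where 3.38% and 2.19% of all were. In siNfib against siNfia 26 of 507 were gained and 10 lost, 5.13% and 1.97%, where 3.6% and 2.45% of all were. Cdh13 gained 6 of 60 regions and Cdh20 4 of 50 with siNfib. The best-ranked was chr1:104848893-104849392 in Cdh20, occupied in 3 siNfib and 2 siNfia libraries and in no other library. All 3 siNC lists held a weaker summit there. The best-ranked in Cdh13 was chr8:118487511-118488010, occupied in the 3 siNfib libraries and in no other library, with weaker summits in 2 siNC lists. A region in Pcdh9, chr14:93163683-93164182, was occupied in 3 siNfib and 0 siNC libraries, where all 3 lists held a weaker summit, and also in 3 hyperplasia and 1 tumor library. The Celsr2 flank region given before was occupied in 3 siNfib and in 0 siNfia, 0 siNC and 0 untreated VDR libraries, with a weaker summit in 1 siNC list. In Cdh8, chr8:99139960-99140459 was occupied in 3 siNfib, 0 siNfia and 3 siNC libraries.

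Most member regions were not shared. Of the 1619, 61 were occupied in all 21 libraries, which is 3.77%, beside 5.47% of all regions, and 56.9% were occupied in a single library, beside 49% of all. These shares pool all groups: untreated VDR and tumor together held 1314 of the member regions, where siNC VDR and tumor held 590. Dchs1 and Pcdh18 had the highest share occupied everywhere, 20% of 15 and of 5 regions. Per length of window, Celsr2 was densest in tumor, with 40.9 ± 1.77 kept summits per 100 kb (SD, n = 3), and it was densest in every other group except untreated VDR. In untreated VDR Cdh15 was densest, with 38.4 ± 12.8 per 100 kb.

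Genes that work with cadherins were counted by the same test. Of 13 catenin and junction plaque genes, 2 rose and 5 fell in untreated VDR against tumor and 2 rose and 3 fell in siNC VDR, where, as given before, 20.3% of all genes rose and 28.3% fell in untreated cells and 16.4% and 8.85% in siNC cells. Ctnna1, the alpha-catenin that links cadherins to actin, fell in both, to 3 ± 1.73 kept summits in untreated and 3 ± 2 in siNC cells, against 9 ± 2 in tumor (SD, n = 3 each). Ctnna3 fell in both as well. Ctnna2, the neural alpha-catenin, rose to 78.3 ± 5.51 in siNC cells, against 42.7 ± 2.89 in tumor, and to 42.7 ± 2.89 in tumor, against 28 ± 2 in hyperplasia and 31 ± 1 in GNP. Of the 7 repressor genes of classical cadherins, 5 were tested in the line: 3 rose and 2 fell in untreated cells, and 1 rose and 1 fell in siNC cells. Zeb1 fell in both, to 1.33 ± 1.53 in untreated and 4.67 ± 2.31 in siNC cells, against 12.7 ± 1.53 in tumor, and Snai3 rose in both, to 23 and 9.67, against 6 in tumor. Zeb2 fell to 3.67 in untreated cells, against 25.7 in tumor. Twist2, with 14.7 in untreated cells against 1 in tumor, and Snai1, with 6.33 against 2, reached the filter through the untreated counts and had to differ. Of 11 planar polarity genes, 10 were tested: 1 rose and 4 fell in untreated and 1 rose and 1 fell in siNC cells. Fjx1, a kinase acting on Fat cadherins, was lower in both, and Dchs2 was lower in untreated cells. Both genes reached the filter through their tumor counts and had to differ. Of 13 other cadherin family genes, of which 9 were tested, 0 rose and 2 fell in either, Clstn2 in both, with 3.67 ± 2.31 in untreated and 2.67 ± 1.53 in siNC cells, against 27.7 ± 0.577 in tumor. Between stages, genes of these 4 lists were called in both directions by count. In tumor against GNP, Jup (8.33 against 14.3) and Snai3 (6 against 11.7) fell. Clstn1 (10.3 against 6.67), Clstn3 (9.33 against 6.33) and Ctnna2 rose there. In hyperplasia against GNP, Prickle2 and Clstn2 fell and Clstn1 rose. With siNfia or siNfib 0 genes of these 4 lists were called by limma.

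Markers of other cell types in the line were as follows. The 7 oligodendrocyte markers summed to 36 to 46 kept summits in untreated and 45 to 53 in siNC cells, against 71 to 72 in tumor, with Olig2 at 0 in siNC cells. Pdgfra, Olig1, Olig2 and Mbp fell in both, Olig2 having reached the filter through its tumor counts. Sox10 rose in both, to 16 in untreated and 6.33 in siNC cells, against 3.33 in tumor, and Mog rose in siNC cells (11 against 6.67). The 7 Purkinje and interneuron markers summed to 9 to 15 in untreated and 16 to 25 in siNC cells, against 32 to 42 in tumor, with Calb1, Gad2 and Ptf1a at 0 in both VDR groups. The 6 astrocyte markers summed to 46 to 59 in untreated and 44 to 47 in siNC cells, against 43 to 52 in tumor; Aldh1l1 rose in untreated cells and Gfap fell in siNC cells. The 7 microglia markers summed to 48 to 51 in untreated and 23 to 36 in siNC cells, against 20 to 24 in tumor, with Spi1, Irf8, Aif1 and, through its untreated counts, Tmem119 higher in untreated cells and Aif1 in siNC cells. In the Purkinje and interneuron list, Foxp2 fell in untreated cells (4.67 against 28.3 in tumor). The 7 fibroblast markers summed to 19 to 21 in untreated and 16 to 22 in siNC cells, against 16 to 19 in tumor. Col1a1 of that list rose in untreated cells (10.7 against 6.67, adjusted p = 0.0469). The part of all these markers in the cadherin differences was not tested.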

How the data were processed

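Omni-ATAC libraries of 21 mouse samples were analysed. The authors deposited 1 list of peak summits per library with a score, read as the −log10 p-value or q-value of MACS2 (neither is named). The submitters' processing notes name Bowtie2, Picard, MACS2 and mm10, without versions or parameters; read shifting and thresholds are not given in these sources. The score was used for ranking alone. No file gives the depth, so no counting interval is given.

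From each list the 100000 highest summits on the autosomes, X and Y were taken and counted per protein-coding gene (GRCm38.p6, which is mm10) in its body and 20 kb either side. Windows of neighbouring genes share summits, so gene tests are not independent: the windows of Celsr2, Celsr3, Cdh23 and Dchs1 hold 3 to 5 other genes. Counts as log2(count + 1) were fitted with limma 3.58.1 (R 4.3.3, trended empirical Bayes) in 3 fits of 9 libraries: the primary stages; tumor, untreated and siNC VDR; and the transfected VDR cells. Genes with a mean under 3 were left out. Calls are at a Benjamini-Hochberg adjusted p under 0.05 over all genes tested. The second measure subtracts the mean log2(count + 1) of the 10 nearest genes, members excluded. Members near each other can share all 10 neighbours, as Cdh6, Cdh9 and Cdh10 do, and Cdh5, Cdh8 and Cdh11. Their values against neighbours are therefore not independent. A neighbour can also lie in the window of another member, as Acot10 does in that of Cdh12. SE is the fit's standard error. The fits were tested on simulated data.

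The members, lists, tests and naming rule were chosen with earlier results of these data known. Named are called members (the 10 largest log2 changes with every library where more than 10 were called), otherwise the 2 largest positive and 2 largest negative members; members under the filter with their range; and the best-ranked gained or lost regions, at most 5 members per direction, of which some are given. Same-numbered replicates did not pair: their deviations correlated at -0.0413 to 0.0787. Alternatives were 50000 or all summits, bodies without flanks, merged summits, no filter, a pseudocount of 0.5, all 21 libraries in 1 fit, a replicate block, leaving out each library, and, added after seeing the data, a fit without untreated VDR. Promoter sequences are RefSeq's. Counts used Python 3.11.15, pandas 2.3.3 and numpy 2.4.6, and plots matplotlib.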

Additional observations from a re-analysis of the deposited data

Results flagged for a closer look

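Cdh22 and Cdh23 were flagged because both were called above tumor in untreated VDR and below the same tumor libraries in siNC cells. Their difference between the 2 states follows from those 2 calls in the same fit, so its test adds no support. It was 1.69 on the log2 scale for Cdh22 (limma, adjusted p = 9.34e-06) and 1.90 for Cdh23 (adjusted p = 8.67e-07), untreated minus siNC, with every untreated library above every siNC library. Other members differed by a similar size, among them Cdh15 (2.02), Pcdh9 (-1.90) and Cdh10 (-1.84). For Cdh22 and Cdh23 the tumor comparisons also depended on the measure. Against neighbouring genes the differences between the 2 states were 0.72 for Cdh22 (adjusted p = 0.0342) and 1.38 for Cdh23 (adjusted p = 0.000805). Against neighbours, however, neither gene was called below tumor in siNC cells, and Cdh22 was not called above tumor in untreated cells (0.04). With whole lists the untreated difference from tumor was 0.35 for Cdh22 (adjusted p = 0.136) and 0.27 for Cdh23 (adjusted p = 0.264), no longer called, while both remained called below tumor in siNC cells. The untreated libraries also had the lowest score at rank 100000 and the fewest peaks with several summits, and whether that plays a part was not tested.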

How the results depend on the processing

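Between stages few calls were stable. In hyperplasia against GNP, 3 members were called, 0 with whole lists and 1 with a replicate block; against neighbours 5 were called, 3 with 50000 summits and 2 with whole lists. In tumor against GNP, 6 were called, 0 with 50000 summits, 0 with whole lists and 3 with all 21 libraries; against neighbours 4, and 1 with 50000 summits. In tumor against hyperplasia gene bodies alone gave 1 in place of 0. In untreated VDR against tumor, 20 became 13 with 50000 summits, and 12 against neighbours became 23 with whole lists. In siNC VDR against tumor, 13 became 7 with 50000 summits and 7 with merged summits; against neighbours 6 became 2 with 50000 summits, 15 with whole lists and 12 in the fit without untreated VDR. In siNfib against siNC, 50000 summits gave 1 in place of 0 on both measures. Between siNfib and siNfia whole lists gave 6 in place of 0, all higher, where 9.38% of all genes were higher, 0.146% lower and the median of all shifted by 0.31, and 50000 summits 1 in place of 0 against neighbours. The cause was not tested. The replicate block, whose numbers do not pair the samples, moved no other count by over 1.5 times.

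Leaving out 1 library gave 0 to 2 calls in hyperplasia against GNP, 0 to 1 in tumor against hyperplasia, 0 to 2 in tumor against GNP, 17 to 24 in untreated VDR, 7 to 13 in siNC VDR and 0 in each knockdown comparison. Against neighbours these ranges were 1 to 4, 0 to 0, 2 to 5, 5 to 15, 2 to 9 and 0.

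Log2 changes turned round for Cdh18 in tumor against GNP (-0.051 with 50000 summits), Cdh5 in siNC VDR against tumor (-0.11 with 50000 summits), Fat2 with siNfia against siNC (-0.39 with 50000 summits, -0.041 with whole lists), Cdh7 with siNfia against siNC (-0.068 with whole lists), and, between siNfib and siNfia, Fat2 (0.39 with 50000 summits, 0.069 with whole lists) and Cdh8 (0.051 with 50000 summits, 0.16 with whole lists). Of the other values of named members, 630 kept their direction and their side of the threshold, 130 lost the call and 2 gained one. Depth is unknown, so a missing summit may be a weak one.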
